A study of Rattus norvegicus with 17 samples.

Results

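The comparison described here is the effect of electrical stimulation of the nucleus raphe magnus (NRM), a midline hindbrain nucleus, on the spinal cord transcriptome of rats, with spinal cord injury held as a term in the model. Its members are the 15 of 17 rats of the study that received no pimozide. By title letter and series design, 8 of them had active stimulation (groups C and E) and 7 had an inactive electrode (groups B and A). The question it answers is which genes, if any, stood higher or lower after stimulation in the same direction with and without injury. Injured and intact rats are called the strata below, and differences are given as log2(FC), the log2 fold change of stimulated over sham rats, with FDR for the adjusted p.

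Group B (n = 3 rats, numbers 91, 94 and 95) had a contusion at thoracic segment T8 and sham stimulation, and group C (n = 3 rats, 89, 90 and 93) had the same contusion followed by stimulation. Group A (n = 4 rats, 70, 82, 83 and 84) had the vertebral lamina removed without a contusion and sham stimulation, and group E (n = 5 rats, 69 and 85 to 88) had the laminectomy followed by stimulation. The other 2 rats (group D) were injured, given pimozide and stimulated, and enter only where stated. All were female rats of 10 to 12 weeks, without transgenes, called Sprague-Dawley in the study's methods and Brown Norway in its keywords. All had surgery 3 days earlier, an electrode in the NRM under isoflurane, and daily buprenorphine and gentamycin. Active stimulation ran for 2 h at 8 Hz and 30 µA, and the cord was taken at once afterwards. Blocks of 0.5 cm of cervical, thoracic and lumbar cord, with the pia-arachnoid, were combined into 1 library per rat, so levels next to the injury and far from it cannot be told apart. A label field calls group E unstimulated, whereas its title letter and the series design make it the stimulated intact group, and it was analysed as such.

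The NRM sends serotonergic and other axons down to the dorsal and ventral horns, where serotonin acts largely through G protein-coupled receptors, some of which raise cAMP and so can act on genes through the cAMP response element. The NRM is best known for control of pain transmission and of autonomic outflow. The spinal cord block also holds blood in its vessels, and after a contusion it holds blood-borne leukocytes, so erythroid, platelet and granulocyte transcripts are measured along with those of neurons and glia.

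Depth was 9852873 to 14137717 counts per library. Of 32494 genes in the table, 15154 passed the filter on low counts. Levels are given as CPM, the counts of a gene relative to the scaled size of its library. The table gives Ensembl identifiers only, and 99 of them could be named, from tables that the study itself built on these rats. The study chose 43 of these genes on C against B and the other 56 on D against C, so their C minus B values are tied to that choice and are given as a description, while E against A uses rats that neither choice used. The lists of immediate early, cAMP-responsive, serotonin, respiratory chain and other pathway genes had no member that could be named in 23 of 29 cases, and the tissue could not be checked against neural markers for the same reason. Only the erythroid list was covered to at least 80%.

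Libraries differed in a property that the groups do not fully explain. The mean level of 32 tested small RNAs (small nucleolar, small nuclear, miscellaneous and mitochondrial transfer RNAs), as mean log2(CPM + 0.1), was 2.73 to 3.78 in the 5 rats of group E and 3.08 in rat 82 of group A. It was 1.09 to 1.19 in the other 3 rats of group A, 0.74 to 1.46 in group B and 1.03 to 1.29 in group C. In a fit of all 17 rats the 2 pimozide-treated rats stood at 3.39 and 3.52. Apart from rat 82, stimulation in intact rats and this library property cannot be told apart, and values without rat 82 are given beside the main counts in intact rats and the small RNA results.

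No gene passed FDR < 0.05 for stimulation adjusted for injury. The smallest adjusted p in edgeR's quasi-likelihood test was 0.59 after Benjamini-Hochberg correction (0% of 15154 genes called). Unadjusted, 1242 genes (8.2%) had a p under 0.05, of which 568 were higher (3.75%) and 674 lower (4.45%) with stimulation. DESeq2 put 3 genes at FDR < 0.05 and 1239 at an unadjusted p under 0.05, and limma-voom put 0 and 1249. The 3 genes of DESeq2, 1 higher and 2 lower, were not among those that could be named, and none had an absolute log2(FC) over 1. The standard error of log2(FC) had a median of 0.09 over all genes and the absolute log2(FC) a median of 0.08 and a 95th percentile of 0.37, so the median difference was smaller than the median error.

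Genes at an unadjusted p under 0.05 had such a p more often in the intact than in the injured stratum. Over all genes the shares were 9.01% in E against A and 3.39% in C against B. The intact stratum holds 9 rats against 6, with a median standard error of 0.12 against 0.15. It thus weighs more in the value adjusted for injury, on which these genes were picked. Of the 568 higher genes, 279 also had a p under 0.05 in E against A (341 without rat 82), 74 in C against B, and 11 in both. Of the 674 lower genes, 431 did so in E against A (472 without rat 82), 61 in C against B, and 9 in both. Low and high expression contributed unequally, since 5.52% of the 670 genes under 1 CPM had such a p, against 11.9% of the 2136 genes over 100 CPM. The size of the differences was small, with an absolute log2(FC) over 1 in 33 of the higher and 3 of the lower genes. Without rat 82, 486 of the higher and 608 of the lower genes kept a p under 0.05, and over all genes 5.25% were higher and 5.47% lower at such a p. When the small RNA level of each library was added as a term, 126 and 131 of them kept it, and over all genes 506 had a p under 0.05 with the smallest adjusted p at 0.96. Apart from rat 82 that level was high in every stimulated intact rat and low in the sham intact rats. The term therefore also takes up the difference with stimulation in intact rats, and the drop cannot tell it from the library property.

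Each stratum on its own also gave no gene at FDR < 0.05 in edgeR's quasi-likelihood test. The study used a different test, edgeR's exact test, and listed 43 genes for C against B and 28 for E against A. Its criteria were FDR < 0.05 and an absolute log2(FC) over 1. Stimulation after injury (C against B) had 514 genes at an unadjusted p under 0.05 (3.39%), 292 higher (1.93%) and 222 lower (1.46%), and DESeq2 and limma-voom put 0 genes at FDR < 0.05 there. Stimulation in intact rats (E against A) had 1365 (9.01%), or 1951 (12.9%) without rat 82. With all rats DESeq2 put 39 genes at FDR < 0.05 there, of which 5 could be named, and limma-voom 0. Without rat 82, edgeR put 95 genes (0.628%) at FDR < 0.05 in E against A, and still 0 for stimulation adjusted for injury. The interaction of stimulation with injury gave 0 genes at FDR < 0.05 in all 3 tools, and 662 (4.37%) at an unadjusted p under 0.05 in edgeR, 596 in DESeq2 and 620 in limma-voom. Without rat 82 it gave 3 genes (0.0198%) in edgeR, all of them small RNAs.

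The C minus B and E minus A differences share no rats, so they can be set side by side. Across the 15154 genes, which are not independent of each other, log2(FC) had the same sign in 8580 (56.6%), with Pearson's r of -0.08 and Spearman's rho of 0.12. Among genes of large difference, 27 exceeded 1 on the log2 scale in both strata with opposite signs and 8 with the same sign. At an unadjusted p under 0.05 in both strata, 20 genes (0.132%) had the same direction, 11 higher (0.0726%) and 9 lower (0.0594%), and 20 genes (0.132%) had opposite directions. Leaving out single rats took the same-direction count from 10 (without rat 95) to 78 (without rat 93). It took the opposite count from 8 (without rat 84) to 44 (without rat 93). Whether either count exceeds that of unrelated strata was not tested. Of the 20 with the same direction, 1 could be named, the axonemal dynein gene Dnah8, whose difference in injured rats was -1.87, and -0.19 ± 0.74 without rat 95 of group B. Of the 20 with opposite directions, 10 could be named, and 8 of these were erythroid or platelet genes (Ermap, Kel, Ahsp, Slc4a1, Hbb-b1, Rhag, Itga2b and Tubb1), all higher in C than B and lower in E than A. Only genes that the study listed on C against B or D against C could be named, so the C minus B side was tied to the naming. In all, 18 erythroid and 4 platelet genes were tested.

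**Figure D1:**
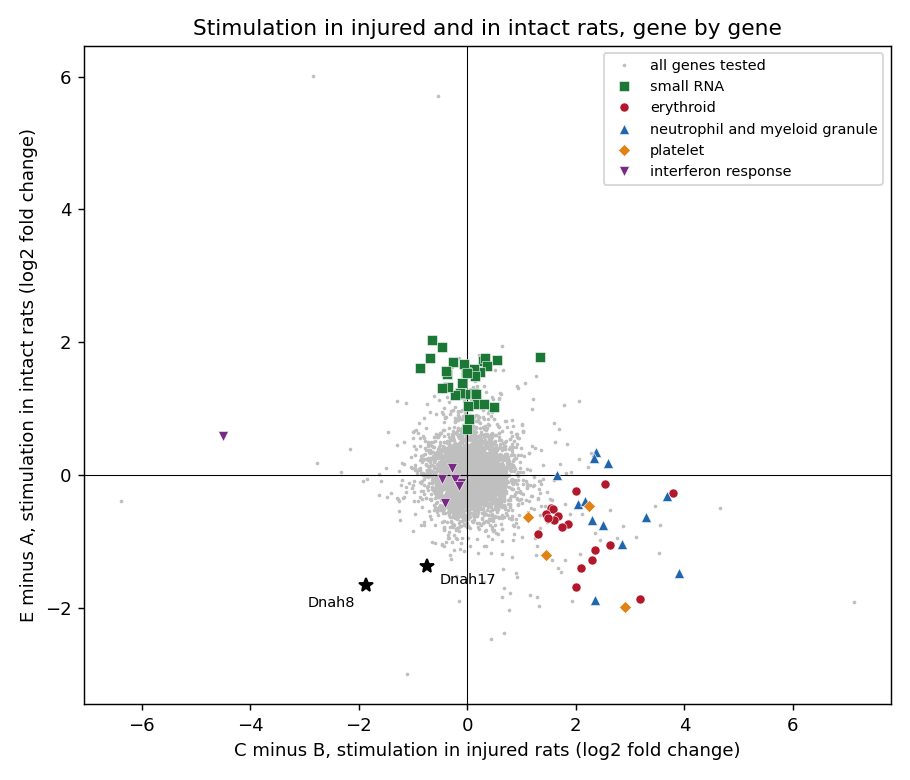
Each point is a gene, with log2(FC) of stimulation in injured rats (C minus B) on the horizontal axis and in intact rats (E minus A) on the vertical axis. Small RNAs lie high on the vertical axis near 0 on the horizontal, erythroid, myeloid granule and platelet genes lie to the right and mostly below 0, and the dynein genes Dnah8 and Dnah17 lie at the lower left. Points beyond 4 on the horizontal axis in either direction include genes with almost no counts in 1 group, whose fitted values depend on the prior count.

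In 13 genes (0.0858%) every stimulated rat lay on one side of every sham rat within both strata, 7 higher (0.0462%) and 6 lower (0.0396%), and in 4 genes (0.0264%) the ranges were apart in opposite directions. Ranges were apart in C and B alone in 483 genes with C higher (3.19%) and 437 with C lower (2.88%), and in E and A alone in 197 with E higher (1.3%) and 179 with E lower (1.18%). Whether 13 exceeds the count that unrelated strata would give was not tested. Without rat 82 the counts were 52 in the same direction and 26 in opposite directions, where 1 rat fewer makes separation easier by construction. None of the 13 could be named. Their absolute log2(FC) adjusted for injury was at most 0.72 among the higher and 0.87 among the lower genes. The gene with the smallest p, ENSRNOG00000016930, stood at 39.6, 43.6, 39.3 and 38.9 CPM in group A (rats 70, 82, 83 and 84) and 46.8, 50.2, 49.7, 46.4 and 52.4 CPM in group E. In injured rats it stood at 38.5, 38.4 and 35.4 CPM in group B and 45.4, 41.7 and 44.6 CPM in group C. Every stimulated rat was above every sham rat of its stratum. Its log2(FC) was 0.26 ± 0.05 (SE; n = 8 and 7 rats), with an adjusted p of 0.59 in edgeR's quasi-likelihood test, and 0.23 and 0.28 in the injured and intact strata.

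ENSRNOG00000055426 had the largest smaller value of the 2 strata among genes without overlap at a mean of 1 CPM or more. Its levels were 1.04, 0.938, 0.851 and 0.983 CPM in group A and 1.19, 1.79, 1.67, 1.12 and 1.48 CPM in group E. They were 0.640, 0.767 and 0.671 CPM in group B and 1.30, 1.28 and 1.30 CPM in group C. No stimulated rat overlapped a sham rat of either stratum, at about 1 CPM, where a library holds few reads of the gene. Its log2(FC) was 0.72 ± 0.17 (SE), with an adjusted p of 0.59 in edgeR's quasi-likelihood test.

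Among the lower genes, ENSRNOG00000009805 had the smallest p. It stood at 16.1, 11.3, 15.7 and 15.9 CPM in group A and 12.5, 9.88, 9.55, 9.26 and 11.9 CPM in group E. It stood at 21.9, 22.8 and 23.2 CPM in group B and 19.3, 16.1 and 13.8 CPM in group C. The injured groups did not overlap, and in the intact groups rat 82 lay within the stimulated range. The log2(FC) was -0.47 ± 0.10 (SE), nearly equal in the strata (-0.47 and -0.47), with an adjusted p of 0.59 in edgeR's quasi-likelihood test. ENSRNOG00000003183 stood at 27.7, 17.8, 22.2 and 21.4 CPM in group A and 17.5, 17.1, 14.6, 10.9 and 14.8 CPM in group E. It stood at 27.4, 26.1 and 26.9 CPM in group B and 17.3, 23.8 and 21.8 CPM in group C. Both strata were without overlap, with rats 82 and 69 next to each other at the border, and log2(FC) was -0.48 ± 0.11 (SE).

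**Figure D2:**
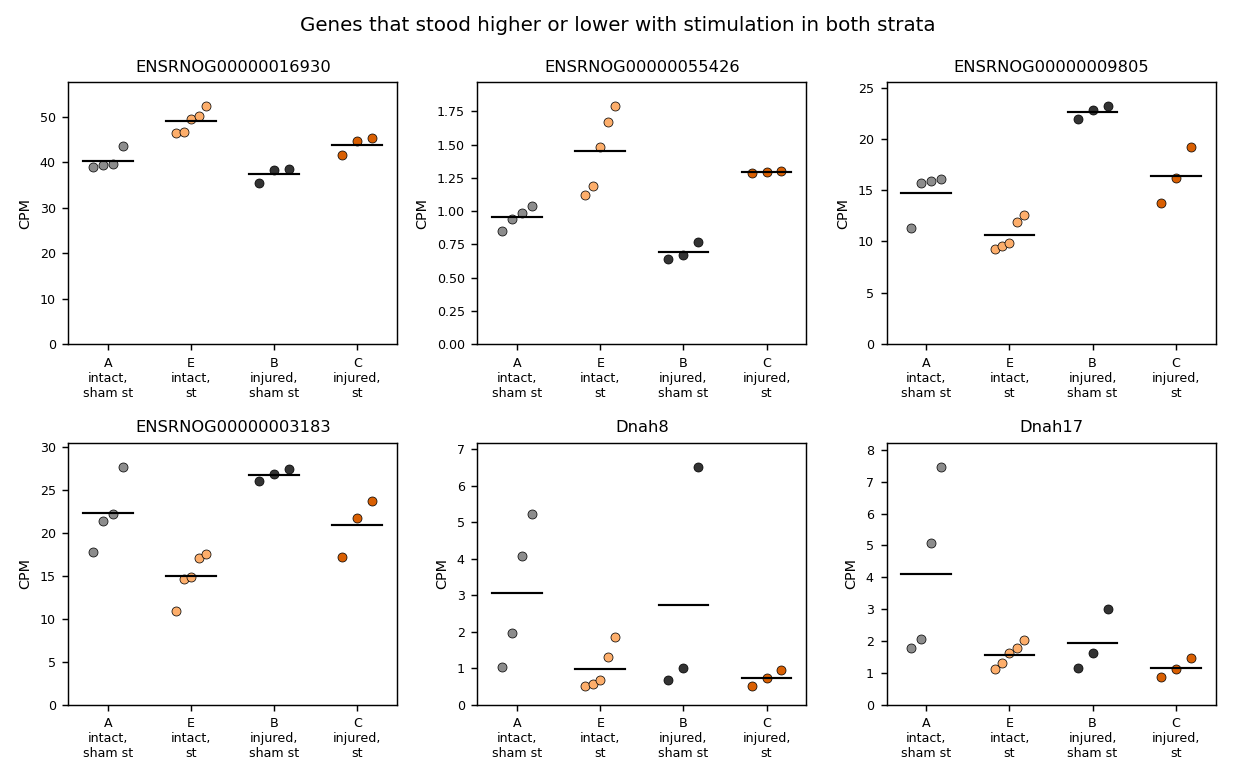
Points are rats and bars are group means, in CPM, for 4 unnamed genes and both dynein genes, with sham stimulation (sham st) in grey and stimulation (st) in orange. Within each stratum the mean of the stimulated group (E or C) stands above that of the sham group (A or B) in the upper left and middle panels and below it in the others, with overlap within a stratum in ENSRNOG00000009805 (E and A), Dnah8 and Dnah17.

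Named genes that were lower in both strata included a pair of axonemal dynein heavy chains, motor proteins of cilia and flagella. Both genes were listed by the study on D against C, so group C took part in the choice. Their C minus B values, and with them those adjusted for injury, are tied to it. Their promoters are shown because both genes leaned the same way, with 300 bases around the start site from RefSeq (build GRCr8), 250 before it and 50 after it, 5′ to 3′ on the gene's strand. Capitals would mark the core of the cAMP response element (TGACG, or CGTCA on the other strand), and neither window holds it. The window of Dnah8 is chr20:8694345-8694644 on the plus strand, and that of Dnah17 is chr10:103861960-103862259 on the minus strand.
Dnah8: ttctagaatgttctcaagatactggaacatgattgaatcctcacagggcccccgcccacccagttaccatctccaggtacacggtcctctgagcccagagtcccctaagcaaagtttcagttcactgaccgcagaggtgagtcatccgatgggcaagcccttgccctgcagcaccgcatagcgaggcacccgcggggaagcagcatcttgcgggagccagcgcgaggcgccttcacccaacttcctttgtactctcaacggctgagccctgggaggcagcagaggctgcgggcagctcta
Dnah17: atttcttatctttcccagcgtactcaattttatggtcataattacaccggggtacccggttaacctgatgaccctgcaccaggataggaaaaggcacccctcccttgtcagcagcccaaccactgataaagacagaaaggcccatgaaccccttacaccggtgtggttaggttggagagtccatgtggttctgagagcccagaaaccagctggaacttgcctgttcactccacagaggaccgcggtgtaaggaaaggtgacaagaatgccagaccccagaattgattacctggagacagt

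Dnah8 stood at 1.04, 5.24, 4.07 and 1.97 CPM in group A and 0.678, 1.87, 0.557, 1.31 and 0.523 CPM in group E. It stood at 1.01, 0.671 and 6.52 CPM in group B and 0.520, 0.734 and 0.951 CPM in group C. The sham groups spread widely, and rats 82 and 83 of group A and rat 95 of group B were well above all others. The log2(FC) was -1.73 ± 0.47 (SE), the most negative of the named genes, with an adjusted p of 0.59 in edgeR's quasi-likelihood test. It was -1.52 ± 0.50 without rat 82 and -1.27 without rat 95. In injured rats it was -1.87, but -0.19 ± 0.74 without rat 95, the other rats of group B overlapping group C. In intact rats it was -1.66, or -1.26 ± 0.66 without rat 82.

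Dnah17 stood at 2.08, 5.08, 7.47 and 1.77 CPM in group A and 1.78, 1.63, 2.02, 1.31 and 1.13 CPM in group E. It stood at 3.02, 1.63 and 1.15 CPM in group B and 0.867, 1.47 and 1.12 CPM in group C. Groups overlapped in both strata, with rats 82 and 83 again highest. The log2(FC) was -1.16 ± 0.31 (SE), with an adjusted p of 0.59 in edgeR's quasi-likelihood test, and it was -0.75 ± 0.53 in injured and -1.37 in intact rats. Without rat 82 the intact value was -1.25 ± 0.43, and without rat 83 the value adjusted for injury was -0.86. Since the blocks are bulk tissue, fewer cells of a type in a block and less RNA per cell cannot be told apart, here and for each cell type below.

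Small nuclear and nucleolar RNAs guide splicing and the chemical modification of other RNAs. With the miscellaneous and mitochondrial transfer RNAs they made up 24 of the 28 named genes that were higher at an unadjusted p under 0.05. Of 32 tested, 32 had a positive log2(FC) adjusted for injury, against 53.6% of all genes, and the 24 at an unadjusted p under 0.05 compare with 3.75% of all genes. Without rat 82 it was 30 of 32, against 5.25%. Their median log2(FC) was 0.95, against 0.01 for all genes. The median was 1.53 in intact and -0.00016 in injured rats, where 16 of 32 were higher (background 51%). The interaction had an unadjusted p under 0.05 in 12 of 32 (background 4.37%) and passed FDR < 0.05 in none in edgeR, while without rat 82 it was 28 of 32 (background 5.99%), of which 3 passed FDR < 0.05. Without rat 82 the intact median was 2.35 and the median adjusted for injury 1.36. In E against A 31 of 32 were higher at an unadjusted p under 0.05, against a background of 3.83%, and without rat 82 it was 32 of 32, against 6.19%. The text and the supplement of the study give AC127784.3 and AABR07043200.1 exchanged types, and the text was followed here, a choice made after the values were seen. With these types exchanged, 31 of 32 had a positive log2(FC), 23 were higher at an unadjusted p under 0.05, and 30 were so in E against A. The study picked the 32 on D against C. Some of them are also in its list for stimulation without injury, which was picked on E against A, so for those the difference is not independent evidence.

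The small nucleolar RNA AC129753.3 had the largest log2(FC) among the genes selected for the smallest p with the same sign in both strata. It stood at 0.830, 4.06, 1.80 and 1.38 CPM in group A and 7.03, 5.91, 4.04, 7.67 and 9.68 CPM in group E. It stood at 1.19, 1.25 and 1.15 CPM in group B and 1.82, 1.47 and 1.12 CPM in group C. Rat 82 lay with the stimulated intact rats, and the injured groups overlapped. The log2(FC) was 1.28 ± 0.32 (SE), with an adjusted p of 0.59 in edgeR's quasi-likelihood test. It was 1.71 ± 0.34 in intact rats and 0.30 ± 0.50 in injured rats. Without rat 82 the intact value was 2.34 ± 0.31 (adjusted p = 0.00223 in edgeR's quasi-likelihood test) and the value adjusted for injury was 1.54 ± 0.34 (adjusted p = 0.34).

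The abundant small nuclear RNA AC097575.3 showed the same order. It stood at 65.6, 172, 56.5 and 64.7 CPM in group A and 262, 198, 184, 162 and 252 CPM in group E. It stood at 45.5, 71.6 and 59.7 CPM in group B and 58.6, 62.8 and 71.4 CPM in group C. All 5 rats of group E and rat 82 were at or above 162 CPM and every other rat was at or below 71.6 CPM. Its log2(FC) was 0.80 ± 0.25 (SE) adjusted for injury, 1.23 ± 0.27 in intact rats and 0.13 ± 0.33 in injured rats, and without rat 82 it was 1.03 adjusted for injury and 1.76 ± 0.17 in intact rats. Without rat 82, 26 of the 32 small RNAs passed FDR < 0.05 in E against A, where 95 of 15128 genes did, and 0 passed for stimulation adjusted for injury. The other named genes that passed there were Rps27a-ps1 and LOC100361457, both higher in E, and Hnrnpa2b1, lower in E.

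**Figure D3:**
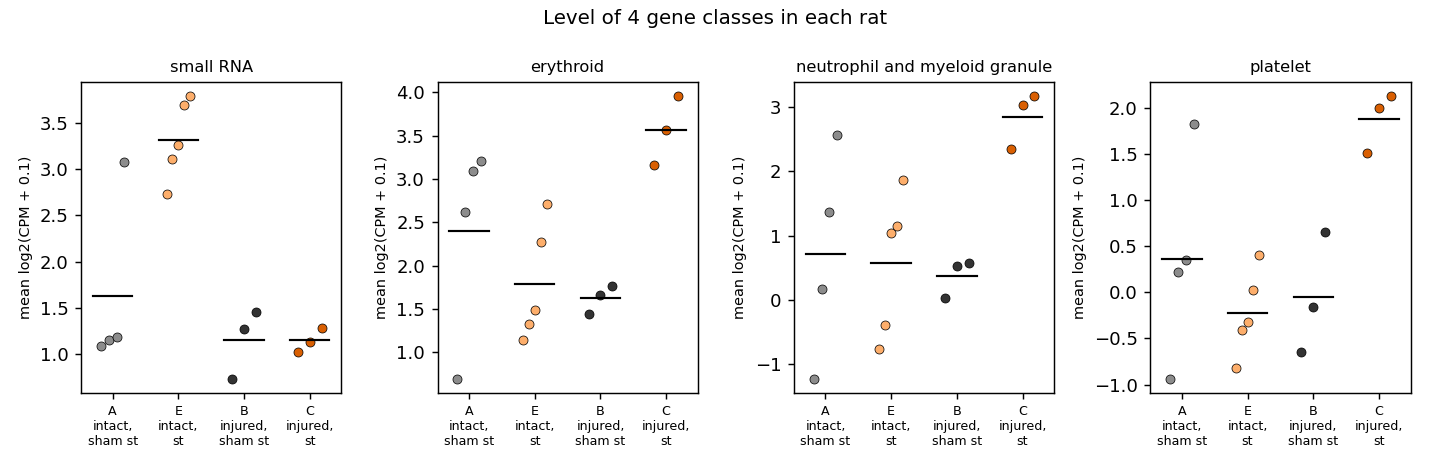
Mean log2(CPM + 0.1) of the tested genes of each class, with points for rats and bars for group means, where st is stimulation. The small RNA level is high in group E and in 1 rat of group A (rat 82, at 3.08), and the erythroid, myeloid granule and platelet levels are all higher in group C than in group B.

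Genes of red blood cells had values of opposite sign in the strata, with no gene past FDR < 0.05 in edgeR in either. All 18 erythroid genes were higher in C than B and all 18 were lower in E than A, with medians of 1.93 and -0.71. Adjusted for injury the median was 0.25, 16 of 18 were higher, and 0 had an unadjusted p under 0.05 in either direction. In the fit adjusted for injury, DESeq2 and limma-voom put no named gene at FDR < 0.05. In E against A, 6 of 18 were lower at an unadjusted p under 0.05, against a background of 5.17%, and without rat 82 it was 5 of 18, against 6.7%, with a median of -0.70 and a median adjusted for injury of 0.39. The study picked these genes on C against B, so only E against A is free of that choice. The interaction had an unadjusted p under 0.05 in 18 of 18 (background 4.37%) and passed FDR < 0.05 in none in edgeR, and it includes the C minus B values used to choose them. The summed level of these genes ranged from 229.8 to 1162 CPM in group A, 323 to 463 in B, 686 to 1951 in C and 279.8 to 684 in E, and no member was at 0 in group C.

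Hbb, the beta chain of hemoglobin, stood at 73.1, 375, 349 and 196 CPM in group A and 193, 98.4, 79.01, 205 and 216 CPM in group E. It stood at 90.2, 132 and 116 CPM in group B and 178, 248 and 523 CPM in group C. Rat 70 was low and rats 82 and 83 high within group A, which overlapped group E, and every rat of C was above every rat of B. Its log2(FC) was 0.17 ± 0.42 (SE), made up of 1.49 in injured and -0.65 in intact rats, with an adjusted p of 0.92 in edgeR's quasi-likelihood test. Leaving out single rats took it from -0.10 (without rat 93) to 0.41 (without rat 82), and without rat 82 the intact value was -0.38.

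Kel, the Kell blood group protein of the red cell membrane, is shown because it had values of nearly equal size in opposite directions and a promoter with the core of the cAMP response element, in capitals. The window is chr4:71551724-71552023 on the minus strand (RefSeq, GRCr8, 5′ to 3′ on the gene's strand).
Kel: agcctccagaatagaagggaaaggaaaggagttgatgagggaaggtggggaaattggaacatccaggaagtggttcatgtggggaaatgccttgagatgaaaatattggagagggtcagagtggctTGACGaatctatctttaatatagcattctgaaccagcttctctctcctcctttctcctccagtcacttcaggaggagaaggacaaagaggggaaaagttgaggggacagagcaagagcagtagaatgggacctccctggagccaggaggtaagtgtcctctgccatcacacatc

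Kel stood at 0.208, 1.41, 3.50 and 2.26 CPM in group A and 0.593, 0.311, 0.279, 1.12 and 0.610 CPM in group E. It stood at 0.914, 0.959 and 0.480 CPM in group B and 2.43, 3.03 and 4.07 CPM in group C. Groups C and B did not overlap, and in the intact rats rat 70 was below all of group E while the other 3 of group A were above it. Its log2(FC) was 2.00 ± 0.61 in injured and -1.69 ± 0.53 in intact rats, and -0.09 ± 0.57 adjusted for injury. Klf1, a transcription factor of red cell precursors, had the largest difference of the class relative to its error, with log2(FC) 0.75 ± 0.37 and an adjusted p of 0.61 in edgeR's quasi-likelihood test, 2.00 in injured and -0.24 in intact rats, or -0.41 without rat 82. Alas2, the erythroid enzyme that starts heme synthesis, had 0.21 ± 0.45, with 1.74 and -0.79 in the strata.

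Genes of neutrophil and myeloid granules were higher in 13 of 13 cases adjusted for injury (background 53.6%), with a median of 0.69, and 1 of them, Fcnb, had an unadjusted p under 0.05 (background 3.75%). Its log2(FC) was 0.85 ± 0.40, and 0.89 ± 0.43 without rat 82, where it no longer had such a p. In the strata, 13 of 13 were higher in C than B (median 2.36) and 9 of 13 were lower in E than A (median -0.43), where 0 had an unadjusted p under 0.05 in either direction in edgeR. Without rat 82, 3 of 13 were lower at an unadjusted p under 0.05 in E against A, against 6.7% of all genes, and the intact median was -0.69. The interaction, which includes the C minus B values used to choose these genes, had an unadjusted p under 0.05 in 11 of 13 (background 4.37%) and passed FDR < 0.05 in none in edgeR. The positive value adjusted for injury thus rested on the injured rats, where the study picked these genes. The summed level was 7.58 to 103 CPM in group A, 21.4 to 30.6 in B, 104 to 179 in C and 9.15 to 89.7 in E, so groups A and E each spanned the whole of group B.

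S100a8, which with S100a9 forms the calprotectin of neutrophils, stood at 1.35, 2.03, 5.01 and 19.1 CPM in group A and 1.10, 9.34, 2.09, 21.7 and 9.59 CPM in group E. It stood at 6.13, 5.56 and 5.27 CPM in group B and 30.3, 34.9 and 22.4 CPM in group C. Group C was above every other rat, and A and E overlapped over nearly their whole range. Adjusted for injury, log2(FC) was 1.19 ± 0.58 (SE), with 2.36 in injured and 0.34 in intact rats (0.02 without rat 82) and an adjusted p of 0.61 in edgeR's quasi-likelihood test, and the log2(FC) was 2.01 without rat 84. S100a9 had 1.10 ± 0.56, and 1.78 without rat 84.

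Fcnb, a lectin of the complement system, had log2(FC) 1.65 in injured and 0.0012 in intact rats, with an adjusted p of 0.61 in edgeR's quasi-likelihood test. Ngp, a neutrophil granule protein, had 1.12 ± 0.53, with 2.60 and 0.18 in the strata. Without rat 82 the intact value was 0.05 for Ngp and -0.07 for Fcnb. Mpo, a peroxidase of neutrophil granules, had 0.58 ± 0.65, with 2.86 and -1.04. Its value adjusted for injury was 0.25 without rat 94 and 1.05 without rat 84, and that of Fcnb was 0.56 without rat 89. Mpo had opposite signs in the strata, where its interaction had an adjusted p of 0.75 in edgeR's quasi-likelihood test.

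**Figure D4:**
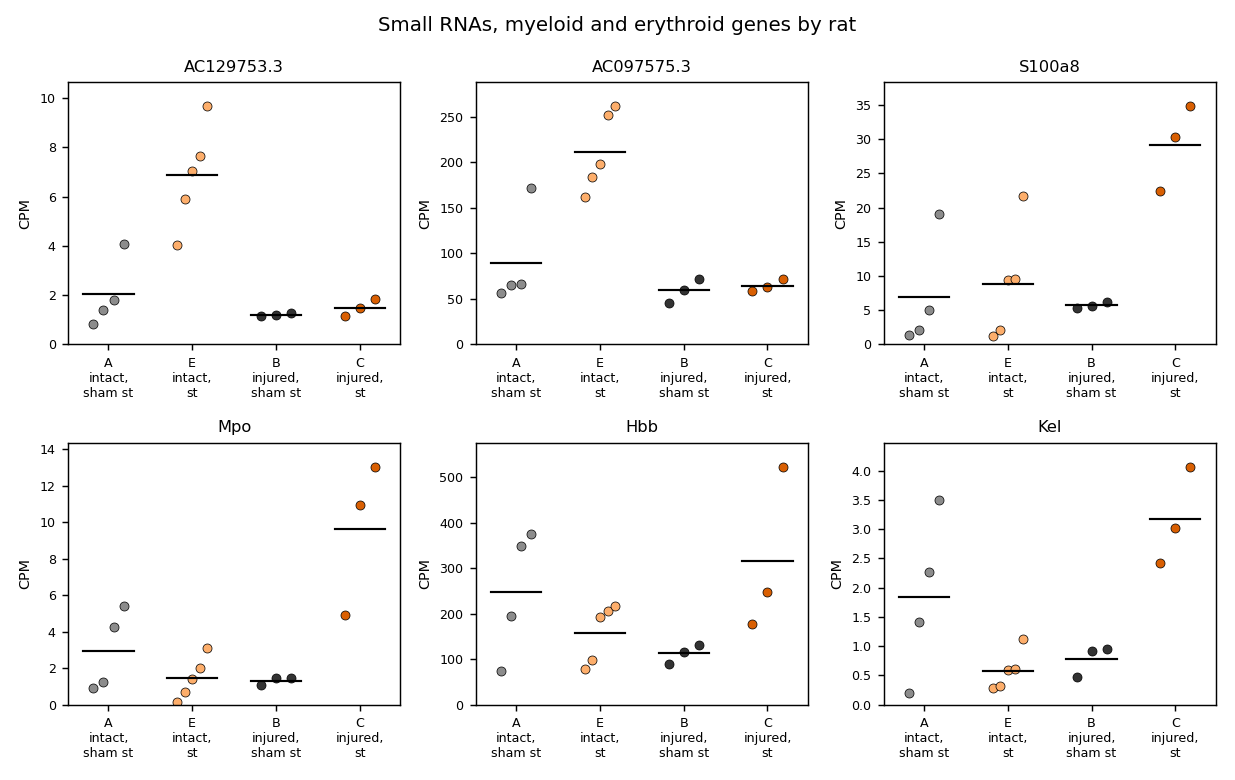
Points show rats and bars group means, in CPM, for a pair of small RNAs (AC129753.3 and AC097575.3), a pair of myeloid granule genes (S100a8 and Mpo) and a pair of erythroid genes (Hbb and Kel), where st is stimulation. The small RNAs are high in group E and rat 82, and the other 4 genes are higher in group C than in group B, while groups A and E overlap.

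Of 5 platelet genes 4 were tested, with a median of 0.38 adjusted for injury, 1.85 in injured and -0.92 in intact rats. In E against A all 4 were lower, and 2 had an unadjusted p under 0.05 (background 5.17%), or 3 without rat 82 (background 6.7%). Itga2b, an integrin chain of platelets, had 0.08 ± 0.27, with 1.12 ± 0.27 in injured and -0.63 ± 0.23 in intact rats. Of the 7 interferon response genes that could be named, 7 were lower adjusted for injury, where 53.6% of all genes were higher, with a median of -0.16 and 0 at an unadjusted p under 0.05 in edgeR. They were lower in 7 of 7 cases in C against B (median -0.29), where group C took part in the choice of each and 1, Gbp6, had an unadjusted p under 0.05 (background 1.46%). In E against A 5 of 7 were lower (median -0.07, or -0.13 without rat 82), and 0 had such a p.

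Among those, Gbp6, a guanylate-binding protein induced by interferon, stood at 1.66, 0.156, 0.284 and 1.67 CPM in group A and 2.29, 1.63, 0.836, 1.31 and 0.785 CPM in group E. Its raw counts were 5, 30 and 15 in group B and 1, 1 and 0 in group C. Group C was below every rat of group B, at the limit of detection, and A and E overlapped. The log2(FC) adjusted for injury was -0.64 ± 0.67 (SE) and in intact rats 0.58 ± 0.60. Leaving out single rats took the former from -1.01 (without rat 82) to -0.25 (without rat 94), and the intact value was 0.19 without rat 82.

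Timd2, a cell surface protein that binds ferritin, had raw counts of 5, 9 and 8 in group B and 20, 23 and 35 in group C, and 0 to 5 in group A and 0 to 8 in group E. It was low in both intact groups, which overlapped. The log2(FC) was 1.17 ± 0.49 (SE), with 1.71 in injured and 0.17 in intact rats and an adjusted p of 0.59 in edgeR's quasi-likelihood test, and the intact value was -0.16 without rat 82. The collagenase Mmp13 had 0.87 ± 0.69, with 3.55 in injured and -0.75 in intact rats, and 0.47 without rat 94 and 1.38 without rat 83. Slc17a7, which loads glutamate into vesicles, had -0.36 ± 0.40, with -2.16 in injured and 0.39 in intact rats, and -0.61 without rat 83 and -0.15 without rat 89. AABR07043748.1, listed as protein-coding, was lower in both strata, with -0.77 ± 0.25 adjusted for injury, -1.48 in injured and -0.33 in intact rats. Hnrnpa2b1, an RNA-binding protein of splicing, had -0.21 ± 0.13, with 0.21 in injured and -0.49 ± 0.13 in intact rats, and -0.13 without rat 84. Without rat 82 its intact value was -0.63 ± 0.10, with an adjusted p of 0.00988 in edgeR's quasi-likelihood test.

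RGD1564883 varied widely within both intact groups. Its raw counts were 148, 186, 8 and 117 in group A and 73, 0, 2, 87 and 1 in group E. They were 1, 1 and 1 in group B and 229, 149 and 122 in group C. Rats had either at most 8 or at least 73 counts, and both kinds occurred in each intact group. The log2(FC) adjusted for injury was 0.16 ± 1.12 (SE), and leaving out single rats took it from -0.38 to 0.59.

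The 39 genes that the study lists as increased by stimulation after injury can be read in the intact rats, which did not choose them. In E against A, 32 of 39 were lower and 7 higher, against 52.2% of all genes higher, with a median log2(FC) of -0.63. At an unadjusted p under 0.05, 8 were lower (background 5.17%) and 0 were higher (background 3.83%), and none passed FDR < 0.05 in edgeR. Without rat 82, 36 were lower and 3 higher, against 51.3% of all genes higher, with a median of -0.67. At an unadjusted p under 0.05 there, 10 were lower (background 6.7%) and 0 higher (background 6.19%), and 0 passed FDR < 0.05. Adjusted for injury, 2 of the 39 were higher at an unadjusted p under 0.05 (background 3.75%). Most of these genes belong to the same blood cell classes, so their values are not independent of each other.

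Promoter sequences were found for 43 of the named genes, as 45 windows of 300 bases. The cAMP response element TGACGTCA was in 0 of the 45, against 612 of 33469 rat promoters (1.83%). Its core, TGACG or CGTCA on either strand, which the full element also contains, was in 5 of the 45 (11.1%: Kel, Hnrnpa2b1, Ermap, Ppbp and Ctsg), against 21.2% of all promoters.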

How the data were processed

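Total RNA of each rat's combined cord blocks was depleted of ribosomal RNA and sequenced single-end with a stranded kit. The values deposited by the authors are counts, whole numbers of reads per Ensembl gene, made with the GeneCounts function of STAR. The submitters' processing notes name bcl2fastq 1.8.4, Trim Galore 0.4.1 and STAR 2.5.0a. The labels give rat build rn6, the methods an earlier build, and no coordinates of the files were used. Which strand column was kept is not given in the sources used here. Only uniquely mapped reads are counted, so members of families of near-identical copies (small RNAs, globins) are uncertain.

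Genes were filtered with filterByExpr over groups A, B, C and E, scaled by TMM, and tested with edgeR 4.0.16 (quasi-likelihood F test; R 4.3.3) in an additive model of injury and stimulation, and in a model of the 4 groups for C against B, E against A and the interaction. P-values were adjusted by the Benjamini-Hochberg method over all 15154 genes, with calls at FDR < 0.05 and an absolute log2(FC) over 1. CPM are TMM-scaled, and class levels are means of log2(CPM + 0.1). No 2 rats of a group agreed within sampling noise (chi-square per degree of freedom 4.39 to 40.5), and each rat is a separate animal. DESeq2 1.42.0 and limma 3.58.1 (voom) were alternatives, with other scalings, filters, terms and each rat left out. The term for the small RNA level was added after seeing the data. The fits were tested on simulated data. Plots used matplotlib 3.10.9.

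The members and gene lists were chosen with earlier results of these data known. Genes were named by this rule: the 15 higher and 15 lower genes with the smallest p at a mean of 1 CPM or more and the same sign in both strata, the 10 largest without overlap in both strata, and up to 4 members of each list that could be named, with Hbb, Mpo, S100a8, S100a9, Mmp13, Slc17a7 and Gbp6. At most 2 unnamed identifiers are shown in each direction. Names came from the study's own tables, where AC127784.3 was taken as a small nucleolar RNA and AABR07043200.1 as protein-coding, after the study's text and against the types in its supplement, a choice made after the values were seen, and the reference table used here pairs no Ensembl identifiers with symbols. Kel, Hnrnpa2b1, Rps27a-ps1, LOC100361457, AC127784.3, RGD1564883, Timd2, Alas2, AC097575.3 and both dynein genes were singled out after their values were seen. The data of group D were used only for the small RNA level and an alternative with a pimozide term.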

Additional observations from a re-analysis of the deposited data

Results flagged for a closer look

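Within groups of 4 and 5 rats, 68 sets of values were tested for a rat that stood apart by Dixon's criterion, and 6 had one, all of them rat 82 of group A. Chance alone gives such a rat in about 1 of 20 sets, and the sets are not independent. The rat stood high in the mean small RNA level (3.08 as mean log2(CPM + 0.1)), in AC097575.3 (172 CPM), in AABR07036645.1 (17.5 CPM) and in AABR07060522.3 (1149.6 CPM), which all belong to the small RNAs. It also stood high in ENSRNOG00000016930 (43.6 CPM), which was higher with stimulation in both strata, and low in ENSRNOG00000009805 (11.3 CPM), which was lower with stimulation in both strata. In each case it lay on the side of the stimulated intact rats of group E. Its labels give sham stimulation.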

How the results depend on the processing

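The count of genes called for stimulation adjusted for injury was 0 under each of 27 settings, and the count at FDR < 0.05 was 0 under each except DESeq2, which put 3 genes there (12046 genes had no adjusted p in DESeq2). The count at an unadjusted p under 0.05 ranged from 506 (with the small RNA level as a term, added after seeing the data) to 1913. The interaction at FDR < 0.05 ranged from 0 to 3 genes as single rats were left out, with 3 without rat 82. Genes at an unadjusted p under 0.05 in both strata with the same direction ranged from 10 (without rat 95) to 78 (without rat 93), and with opposite directions from 8 (without rat 84) to 44 (without rat 93). The opposite count was also 34 with no filter on low counts, 32 among rats 82 to 95 alone and 12 with limma-voom. As single rats were left out, genes without overlap in both strata ranged from 15 to 52 in the same direction, against 13 with all rats. In opposite directions they ranged from 8 to 26, against 4 with all rats. Both counts were highest without rat 82, and leaving out a rat makes such separation easier by construction. The same-direction count was 37 among rats 82 to 95 alone, and the opposite count was 32 there, 8 with scaling by total counts and 7 with a filter of 1 CPM in 3 rats.

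Of 28 genes followed, 21 kept their direction under all 27 settings. Kel turned positive with equal weight of the strata (0.15), with limma-voom (0.37) and with the small RNA term (0.87). With that term, which contains the small RNA itself, AABR07060522.3 turned negative (-0.049), and Hnrnpa2b1 turned positive (0.13). Leaving out single rats took Kel from -0.42 to 0.38, Hbb from -0.10 to 0.41, Alas2 from -0.14 to 0.49, Itga2b from -0.054 to 0.33 and RGD1564883 from -0.38 to 0.59. The cause was not tested. No paired analysis was possible because the numbers in the labels belong to single rats and are not shared between groups. Counts of genes without overlap have no value under DESeq2, limma-voom, equal weight or the added terms. Depth limits the low-count genes most, with a median standard error of log2(FC) of 0.32 under 1 CPM against 0.06 over 100 CPM.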
